A study of Mus musculus with 12 samples.

Results

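Cry1, Cry2 and Ciart encode repressors of the circadian clock, and the BMAL1-ChIP-seq peaks at these 3 genes in control and senescent mouse adult fibroblasts (MAFs) are described here. A peak was counted as a member when the protein-coding start site nearest to its centre belonged to one of them (GENCODE M21, mm10). This gave 61 of the 35822 peaks in the 6 peak lists (Cry1 15, Cry2 39 and Ciart 7), 11 of the 16818 regions formed by merging overlapping peaks, and 3 of 21840 protein-coding genes. Control libraries 1, 2 and 3 held 12, 9 and 13 member peaks, and each of the 3 senescent libraries held 9.

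The MAFs were primary ear cells of wild-type C57BL6/J mice, adult and female. Control cells were sham irradiated, whereas senescent cells received 20 Gy of X-rays and were kept in culture afterwards. Both groups were given 100 nM dexamethasone for 2 h, a pulse that synchronizes the clocks of a culture, and were fixed 12 h later. BMAL1-ChIP-seq was available for 3 libraries per group. The sources do not say whether the replicates were separate cultures or animals, so a p-value here measures only the spread between these libraries. The antibody against BMAL1 is credited to different suppliers in the sample labels and in the methods. A list of BMAL1 peaks cannot show whether the cells expressed fibroblast markers.

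BMAL1 pairs with CLOCK, binds the E-box CACGTG and activates clock genes, among them those of its own repressors. CRY1 and CRY2 are cryptochromes, which join PER proteins in the nucleus and block CLOCK:BMAL1. CIART, also called CHRONO, is a further repressor that binds BMAL1. The peaks therefore lie at 3 genes of the negative limb of the clock.

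The sequences below carry the E-boxes of the strongest member peaks and are shown because the 4 regions called in every library differ in them. All are from the GRCm38 genome, minus strand, which is the strand of all 3 genes, and are written 5′ to 3′. Capitals mark CACGTG, or AACGTG, which is the variant CACGTT read on the other strand. The Ciart stretch is chr3:95882252-95882359, the Cry1 stretch chr10:85185094-85185154 and the Cry2 promoter stretch chr2:92434200-92434265, all just upstream of the start sites. The last is chr2:92423852-92423940 in intron 3 of Cry2.
Ciart promoter: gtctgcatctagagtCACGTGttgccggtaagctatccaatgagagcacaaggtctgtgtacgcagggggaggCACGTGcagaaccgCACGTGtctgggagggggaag
Cry1 promoter: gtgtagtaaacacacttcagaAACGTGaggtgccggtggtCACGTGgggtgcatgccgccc
Cry2 promoter: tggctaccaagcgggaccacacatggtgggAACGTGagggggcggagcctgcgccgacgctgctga
Cry2 intron 3: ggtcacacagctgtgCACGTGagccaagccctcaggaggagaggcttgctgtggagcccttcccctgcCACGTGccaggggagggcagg

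The Ciart promoter held 3 E-boxes in this stretch, at -38, -52 and -110 bp from the outermost start site (negative values are upstream), and 1 more at -432 bp. The first 2 lay 8 bp apart. The Cry1 promoter held 1 E-box at -47 bp, with the variant 13 bp further upstream at -66 bp. The Cry2 promoter peaks covered no CACGTG, and the variant at -189 bp was the only match of this kind in the region. In intron 3 of Cry2, E-boxes at 10121 and 10174 bp downstream of the start site lay 47 bp apart.

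To place these matches among all peaks, exact matches on both strands were counted in windows of equal length, centred on the peak of best rank for its list length in each region called in all 6 libraries (n = 1106). In windows of 1000 bp, the Ciart region held 4 E-boxes, and 2.17% of the 1106 regions held 4 or more. The Cry2 intron region held 3 (6.96% held 3 or more), the Cry1 promoter region 1 (62.2% held 1 or more) and the Cry2 promoter region 0 (37.8% held 0). E-boxes at most 20 bp apart were in the window of Ciart and in 6.42% of the regions. An E-box and the variant CACGTT at most 20 bp apart were in the window of Cry1 and in 2.08% of the regions. The variant, with or without an E-box, was in 27.3%, among them Cry1, the Cry2 promoter and Ciart. In narrower windows of 300 bp, Ciart held 3 E-boxes and was the only one of the 4 member regions with a match to either motif, whereas 51.8% of the 1106 regions and 19.7% of all 16818 regions held CACGTG and 14.6% and 7.97% held the variant. At Cry1, Cry2 promoter and Cry2 intron these windows were centred on the wide peaks of senescent library 2 and ended short of the matches. The RefSeq promoter windows of 300 bp (GRCm38) held 3 E-boxes at Ciart, 1 at Cry1 and 0 at Cry2, and 7.15% of 32851 such windows held CACGTG. A match is a string of letters and not a tested binding site.

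The lists differed in length, with 2794, 3349 and 10601 peaks in control libraries and 4220, 9805 and 5053 in senescent libraries. The lists hold no reads, so depth is unknown, and the absence of a peak from a list means only that none was called. Each peak carries a score, read here as the −log10 of its q-value. Deeper or cleaner libraries give higher scores, so peaks were compared by rank within a library, where rank 1 is the best score. With 3 libraries per group there are 20 arrangements of the labels, and the exact permutation test used throughout (two-sided, n = 3 per group) cannot give a p below 0.1, the value reached when the groups do not overlap. No gene or region in the series passed an adjusted p of 0.05 in these tests (0.00% of 1124 genes and of 1106 regions), which this design could not reach.

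All 3 genes had a peak in all 6 libraries, as did 5.15% of the 21840 genes. The best peak of Ciart ranked 1, 2 and 2 in control libraries and 1, 1 and 2 in senescent libraries. The best peak of Cry1 ranked 12, 12 and 13 in control and 17, 12 and 11 in senescent libraries. The best peak of Cry2 ranked 17, 19 and 21 in control and 15, 14 and 15 in senescent libraries. It was the promoter peak in control libraries 1 and 3, and the intron 3 peak in control library 2 and every senescent library. The best ranks of Cry2 therefore do not follow a single site. The member genes thus stood among the best 21 peaks of every library, however long its list. For Ciart and Cry1 the groups overlapped, and the difference did not exceed the replicate spread (both p = 1 in the exact permutation test). For Cry2 the groups did not overlap, and its best peak ranked 4.33 places better on average in senescent libraries, 14.7 ± 0.577 against 19.0 ± 2.00 (SD, n = 3 each; exact permutation p = 0.1, adjusted p = 0.266 over 1124 genes). A best rank that did not overlap and was better in senescent libraries was found at 18.2% of the 1124 genes, so the pattern at Cry2 was a common one. The groups overlapped at Cry2 when the best rank was taken as a percent of the list (exact permutation p = 0.3) or among regions called in all 6 libraries (exact permutation p = 0.2). The difference fell to -0.667 places (exact permutation p = 1) when only peaks centred within 10 kb of the start site were used, which leaves out the intron 3 peak of 5 libraries.

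**Figure D1:**
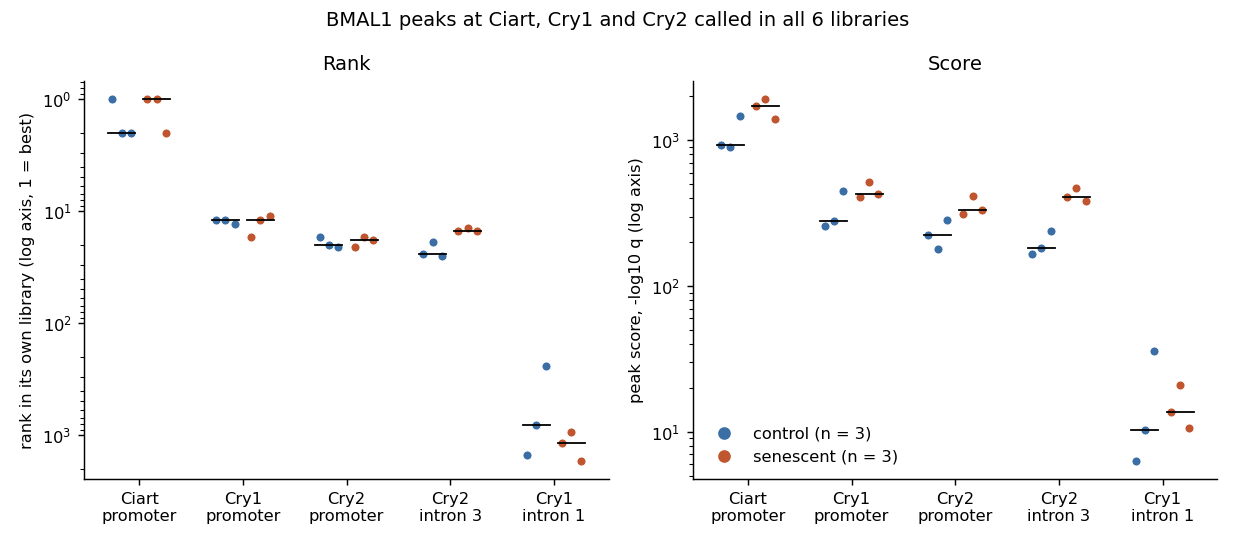
Rank within the library (left, log axis, best at the top) and score (right, −log10 q, log axis) of the 5 sites of Ciart, Cry1 and Cry2 with a peak in all 6 libraries; points are libraries and black lines are group medians. The senescent libraries lie above all control libraries in rank at the Cry2 intron 3 site, with ranks of 14 to 15 against 19 to 25, and overlap with them in rank at the other 4.

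Ordered by mean rank over the 6 libraries, the regions called in every library began with Per1 and Ciart, both at 1.5. Ciart ranked ahead of Per1 in 3 libraries and behind it in the other 3, so neither led. Cry1 stood 10th (mean rank 12.8), the Cry2 intron region 14th (18.7) and the Cry2 promoter region 15th (19.0). Cry1 ranked better than the Cry2 promoter region in all 6 libraries and better than the Cry2 intron region in 5, the exception being senescent library 1 (rank 17 against 15). The ranks of the Cry2 intron and promoter regions overlapped (14 to 25 and 17 to 21). Within libraries, the intron region ranked ahead in control library 2 and every senescent library, and behind in control libraries 1 and 3. Their order by mean rank was thus not the order in every library.

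Cry2 is the cryptochrome with most peaks. It had 7, 6 and 9 peaks in control and 6, 5 and 6 in senescent libraries. These numbers overlapped, and the difference of -1.67 peaks was within the spread (exact permutation p = 0.3). Cry2 was 1 of 13 genes (0.0595% of 21840) with at least 5 peaks in every library, a cut that equals its own lowest number. With a stricter threshold its mean number was 4 in control and 3.33 in senescent libraries. Cry1 had 4, 2 and 2 peaks in control and 2, 3 and 2 in senescent libraries, and Ciart had 1, 1 and 2 against 1, 1 and 1 (both p = 1, exact permutation test). The bases covered by peaks also overlapped at each gene. At Cry2 they were 3269, 3529 and 4859 in control and 3271, 4595 and 3488 in senescent libraries (exact permutation p = 0.7). At Cry1 they were 1647, 1398 and 2117 against 1675, 2103 and 1709 (exact permutation p = 0.6). At Ciart they were 1824, 1956 and 2363 against 1992, 2581 and 1994 (exact permutation p = 0.5). The highest value of each gene came from control library 3 or senescent library 2, which have the longest lists.

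**Figure D2:**
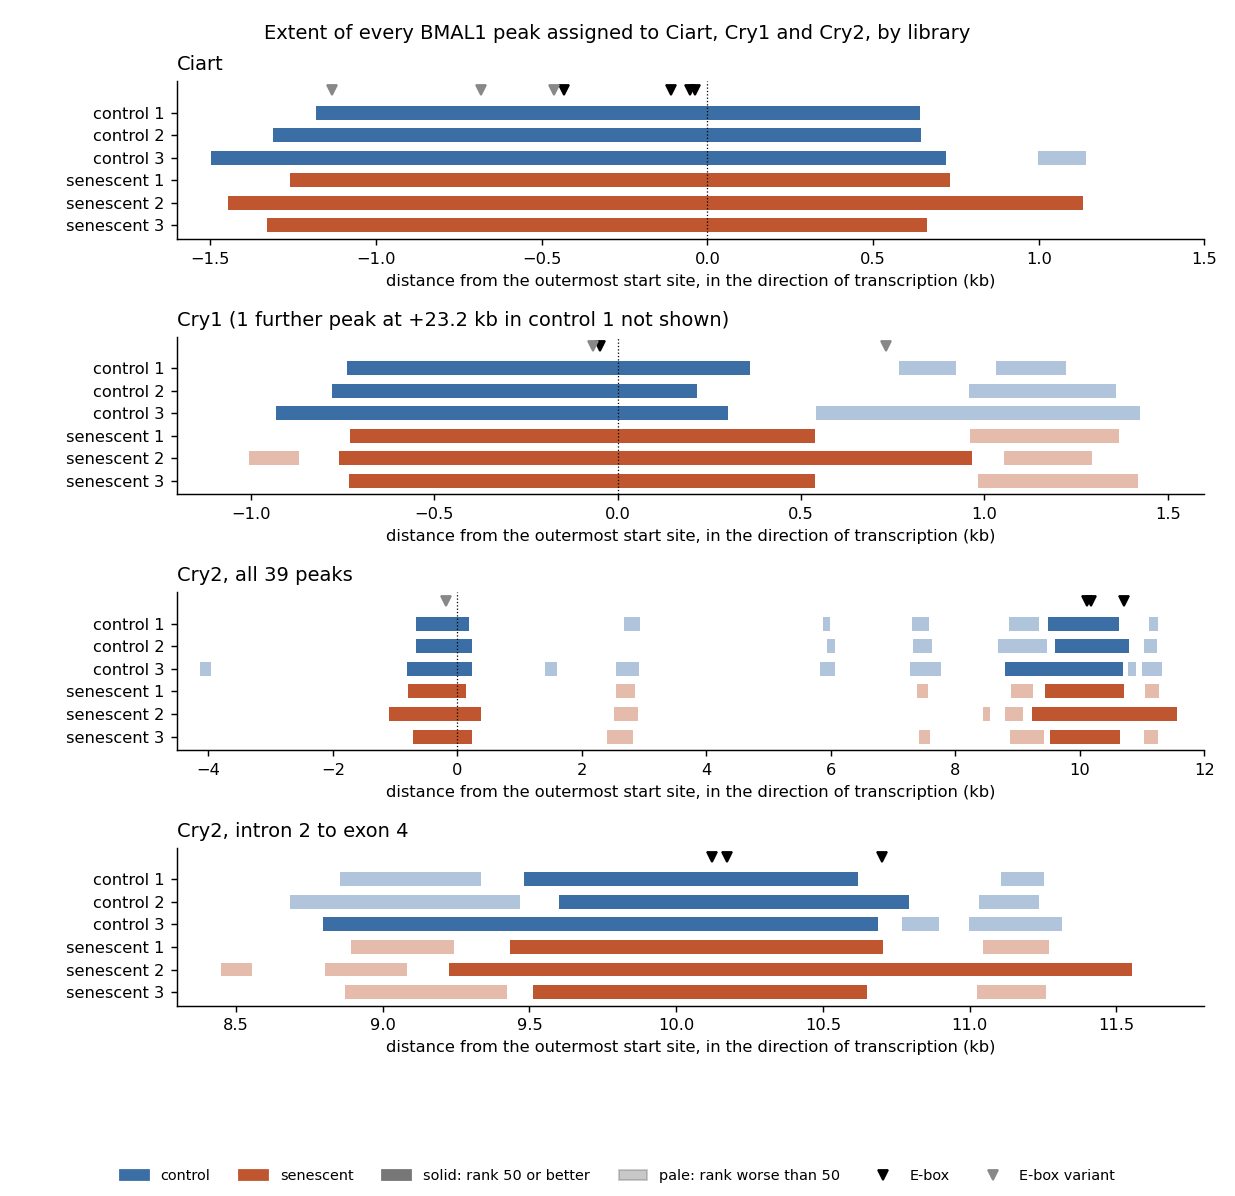
Extent of the member peaks by library against the distance from the outermost start site in kb (positive values downstream, dotted line at the start site); solid bars are peaks of rank 50 or better, pale bars those of worse rank, black triangles E-boxes and grey triangles the variant CACGTT. Cry1 has 1 further peak at 23192 bp in control library 1 that lies outside the plot, and the lowest panel enlarges the intron 2 to exon 4 part of Cry2, where solid bars cover E-boxes in all 6 libraries.

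Of the 11 member regions, 4 were called in all 6 libraries, against 6.58% of all 16818 regions. The 8 Cry2 regions fell into 2 that were called in all 6 libraries and ranked between 14 and 25, and 6 weak regions with ranks of 848 or worse. The promoter region (chromosome 2, 92433657 to 92435148) had its peak centres 215 to 360 bp upstream of the outermost start site. The intron region (chromosome 2, 92422490 to 92425358) was centred 9734 to 10382 bp downstream, in intron 3. Cry2 starts at 92434043 and is read from the minus strand, and the nearest start site of another protein-coding gene, Slc35c1, is 26495 bp away.

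The promoter peak of Cry2 ranked 17, 20 and 21 in control and 21, 17 and 18 in senescent libraries. These values overlapped fully, with means of 19.3 ± 2.08 and 18.7 ± 2.08 (SD, n = 3 each; exact permutation p = 1). The intron 3 peak ranked 24, 19 and 25 in control and 15, 14 and 15 in senescent libraries. Every senescent library ranked it better than every control library, with means of 14.7 ± 0.577 and 22.7 ± 3.21 (SD, n = 3 each; exact permutation p = 0.1, adjusted p = 0.278 over 1106 regions). A rank without overlap that was better in senescent libraries was found at 17.6% of the 1106 regions, and at 29.7% of the 37 regions with a mean rank of 50 or better. When only regions called in all 6 libraries were ranked, the intron region stood at 21, 16 and 20 in control and 14, 14 and 15 in senescent libraries, again without overlap. As a percent of the list it stood at 0.859, 0.567 and 0.236 in control and 0.355, 0.143 and 0.297 in senescent libraries, which overlapped (exact permutation p = 0.3).

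The regions of Cry2 can also be compared within a library, where both scores come from the same list. Whether a ratio of scores is free of differences in depth or local background was not tested. The score of the intron peak was 167, 182 and 240 in control and 411, 474 and 386 in senescent libraries. The score of the promoter peak was 226, 178 and 284 in control and 310, 414 and 331 in senescent libraries. Both sets of scores were higher in senescent libraries without overlap, as at 36.5% of the 1106 regions, against 2.89% with lower scores. The intron score divided by the promoter score was 0.739, 1.02 and 0.843 in control and 1.32, 1.15 and 1.17 in senescent libraries. The intron peak thus scored above the promoter peak in 3 of 3 senescent libraries and in 1 of 3 control libraries. The ratios did not overlap, with means of 0.868 ± 0.143 and 1.21 ± 0.0975 (SD, n = 3 each; exact permutation p = 0.1). This ratio and the test of the intron peak were chosen after seeing the data. Among the 89 genes with at least 2 regions called in all 6 libraries, 13.5% had a ratio of the far to the near region that was higher in senescent libraries without overlap, and 12.4% one that was lower.

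A second measure, for which freedom from depth was not tested either, used the Ciart peak of the same library as the reference. The Cry2 intron peak had 18.0%, 20.2% and 16.3% of the Ciart score in control and 23.7%, 24.7% and 27.4% in senescent libraries, without overlap (18.1 ± 1.94 against 25.3 ± 1.90, SD, n = 3 each; exact permutation p = 0.1). The Cry2 promoter peak had 24.4%, 19.7% and 19.3% against 17.9%, 21.6% and 23.5% (exact permutation p = 1). The Cry1 promoter peak had 27.9%, 31.0% and 30.6% against 23.4%, 27.2% and 30.4% (exact permutation p = 0.2). Only the intron site of these 3 separated the groups. Of the 1106 regions, 22.0% were higher in senescent libraries without overlap on this measure, and 14.4% were lower.

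**Figure D3:**
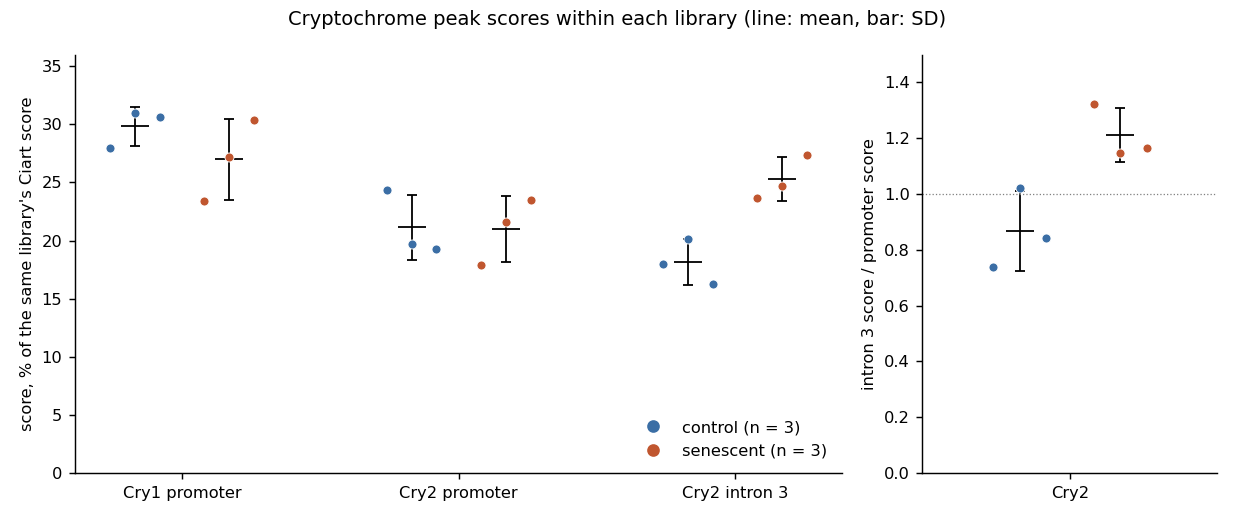
Left, score of the Cry1 promoter, Cry2 promoter and Cry2 intron 3 peaks as a percent of the Ciart score of the same library; right, Cry2 intron 3 score divided by the Cry2 promoter score, with the dotted line at equal scores. Points are libraries, black lines and bars are the mean and SD (n = 3 per group), and the intron site lies at 23.7% to 27.4% in senescent and 16.3% to 20.2% in control libraries.

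The stretch of the Cry2 intron peak that was called in every library was 1023 bp long and held both E-boxes shown above. Another E-box, at 10701 bp, lay inside the peak of control library 2 and of senescent libraries 1 and 2 and outside the other 3. The intron peak was centred 22 to 380 bp (median 61 bp) from the nearest E-box. The widest intron peaks were those of control library 3 (1891 bp) and senescent library 2 (2328 bp), against 1139 to 1275 bp in the other libraries, and their centres lay farthest from an E-box. The widths overlapped between the groups (exact permutation p = 0.7).

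The intron region also took in a weaker peak at its upstream end, in intron 2, centred 8935 to 9140 bp from the start site. It was listed separately in 5 libraries, and in control library 3 the broad intron 3 peak extended over it. Its ranks were 832.5 and 419.5 in control libraries 1 and 2 and 2417, 948 and 3208 in the senescent libraries. This sequence is shown because it holds the AP-1 motif TGACTCA (reverse complement TGAGTCA, in capitals), which was covered by a peak in all 6 libraries, at chr2:92424985-92425031.
Cry2 intron 2: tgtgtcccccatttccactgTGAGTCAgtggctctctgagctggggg
The motif lay 9035 bp downstream of the start site. It lay outside the windows of 300 and 1000 bp around the best peak of the Cry2 intron region, and 13.4% and 23.4% of the 1106 regions held the AP-1 motif in such windows. It was found at no other member region.

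The other end of the Cry2 intron region held a weak peak over coding exon 4 and the start of intron 4, with centres 11127 to 11173 bp downstream in 5 of the 6 libraries. Its ranks were 1433.5, 1568 and 5544.5 in control libraries and 2768.5 and 2370 in senescent libraries 1 and 3. In senescent library 2 the broad intron peak covered this place, and control library 3 listed another weak peak in intron 3, at 10826 bp (rank 6794.5). The remaining Cry2 regions were separate. A region in intron 2 (chromosome 2, 92426275 to 92426770) was called in 3 control and 2 senescent libraries, with ranks of 2640, 848 and 2181 against 4110 and 4305.5. A region in intron 1 (chromosome 2, 92431107 to 92431645) was called in 2 control and 3 senescent libraries, with ranks of 1409.5 and 4825.5 against 2113.5, 1795 and 2121. Neither held an E-box or the variant.

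A single member region was called in all control libraries and in no senescent library. It lies in intron 1 of Cry2 (chromosome 2, 92427982 to 92428223), 5920 to 5988 bp downstream of the start site. Its peaks ranked 2447.5 of 2794, 3301 of 3349 and 5754.5 of 10601, with scores of 3.72, 2.46 and 6.53. They thus stood at 87.6%, 98.6% and 54.3% of their lists from the best score. Regions called in 3 control and 0 senescent libraries made up 1.58% of the 16818 regions, and those called the other way 3.73%. No member region was called in 3 senescent and 0 control libraries. The stretch shared by the 3 control peaks, chr2:92428059-92428113, is shown because it is the only member sequence that separated the groups by presence. It holds none of the motifs searched, so no letter is in capitals.
Cry2 intron 1: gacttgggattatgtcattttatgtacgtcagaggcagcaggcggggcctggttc
Regions called in 1 library made up 55.7% of all regions and 3 of the 8 at Cry2, centred 8494 bp downstream in senescent library 2, and at 1498 and -4051 bp in control library 3. The region of senescent library 2 held the CRE pattern TGACGTCA, which was in 1.65% of the 300 bp windows of all regions.

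Cry1, the other cryptochrome, had its strong peak over the start site (chromosome 10, 85185064, minus strand). The peak had a score of 259, 280 and 451 in control and 406, 522 and 429 in senescent libraries, which overlapped (exact permutation p = 0.3). The stretch covered by this peak in all 6 libraries was 946 bp long and held the E-box and the variant shown above. It also held ACCGGT at 37 and -136 bp, which has the letters of the E-box in another order and is not an E-box. In windows of 300 bp, 3.07% of the 1106 regions held ACCGGT. The RefSeq promoter window of Cry1 held 2 such matches, and 2.33% of 32851 such windows held the pattern. The nearest start site of another protein-coding gene, Mterf2, is 57037 bp away.

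The groups overlapped in the rank of the Cry1 promoter peak but not in its extent. Its downstream edge, inside the gene, lay 360, 216 and 302 bp from the start site in control and 539, 966 and 538 bp in senescent libraries. The groups did not overlap, with means of 293 ± 72.5 and 681 ± 247 bp (SD, n = 3 each; exact permutation p = 0.1, adjusted p = 0.243 over 182 genes). A downstream edge that lay further into the gene in every senescent library was found at 41.2% of the 182 genes with a peak over the start site in all 6 libraries, and the opposite at 0.00%. Cry1 thus shared a pattern that was widespread among promoter peaks. The test of this edge was chosen after seeing the data.

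The upstream edge of the Cry1 peak lay at -737, -779 and -930 bp in control and -729, -758 and -733 bp in senescent libraries, which overlapped (exact permutation p = 0.2). The centre lay at -189, -282 and -314 bp in control and at -95, 104 and -98 bp in senescent libraries, without overlap (exact permutation p = 0.1, adjusted p = 0.455 over 182 genes). A centre further downstream in every senescent library was found at 15.4% of the 182 genes, and one further upstream at 6.59%. The width of the Cry1 peak was 1098, 996 and 1233 bp in control and 1269, 1725 and 1272 bp in senescent libraries, without overlap (exact permutation p = 0.1, adjusted p = 0.225 over 182 genes). A peak that was wider in every senescent library was found at 44.5% of the 182 genes, and a narrower one at 0.00%.

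The same edges at Cry2 and Ciart did not separate the groups. The downstream edge of the Cry2 promoter peak lay at 185, 234 and 227 bp in control and 143, 386 and 237 bp in senescent libraries (exact permutation p = 0.7). That of Ciart lay at 640, 645 and 719 bp against 731, 1132 and 664 bp (exact permutation p = 0.2). At all 3 genes, senescent library 2 reached furthest downstream.

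**Figure D4:**
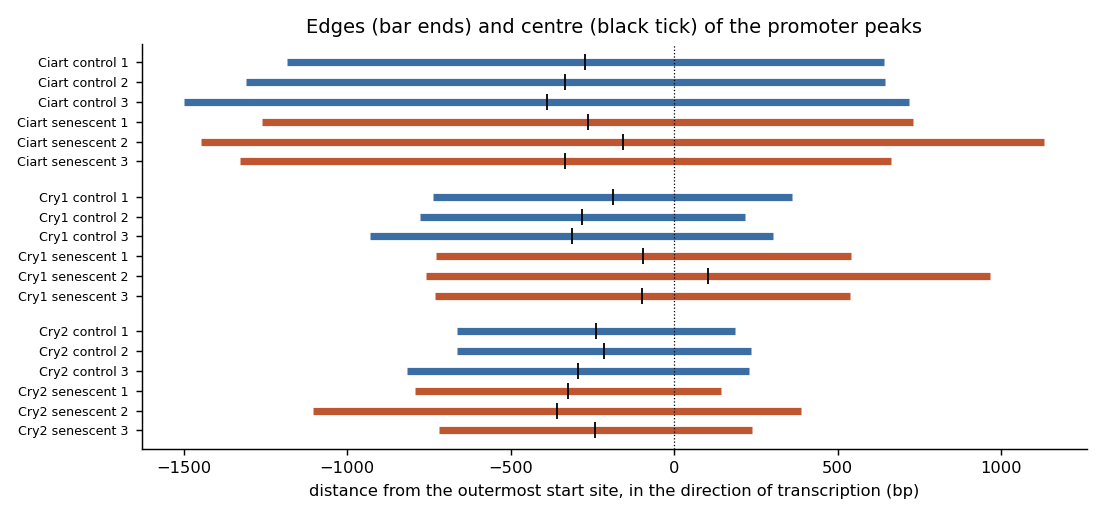
Upstream and downstream edge (bar ends) and centre (black tick) of the promoter peak of Ciart, Cry1 and Cry2 in each library (blue, control; orange, senescent), in bp from the outermost start site (dotted line). At Cry1 the right ends of the senescent bars, at 538 to 966 bp, all lie beyond those of the control bars, at 216 to 360 bp, whereas at Ciart and Cry2 they overlap.

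Downstream of the promoter peak, Cry1 had a weak peak in intron 1 in all 6 libraries. Its centre lay 844, 1159 and 983 bp from the start site in control and 1163, 1173 and 1201 bp in senescent libraries. The groups did not overlap (exact permutation p = 0.1), although the closest values were 1159 and 1163 bp. Nor did the upstream edge, at 766, 959 and 542 bp against 961, 1053 and 983 bp (exact permutation p = 0.1). Both measures take the better-ranked of the 2 peaks that control library 1 had here. The share of other weak peaks with such a separation was not computed. This peak ranked 1505, 807 and 240 in control and 1171, 940 and 1712.5 in senescent libraries, which overlapped (exact permutation p = 0.4). The rank of 240 came from control library 3, where the peak was 884 bp wide against 157 to 437 bp in the other libraries. The second peak of control library 1, at rank 1688.5, was centred at 1126 bp with its upstream edge at 1031 bp. With it in place of the first, the centres would still not overlap, but the upstream edges would. The intron peak and the promoter peak belong to 1 merged region (chromosome 10, 85183639 to 85186068), because the promoter peak of senescent library 2 extended to the intron peaks of other libraries. A further pair of Cry1 peaks was called in 1 library each. Senescent library 2 had one at -936 bp (rank 3054.5), and control library 1 had one 23192 bp downstream in intron 1 (rank 1998) that held 2 matches to the RORE pattern TAGGTCA, the motif of REV-ERB and ROR receptors. That pattern was in 2.46% of the 300 bp windows of all regions. It was also matched in the Cry2 intron region, 9490 bp downstream of the start site, under peaks of 2 control and 2 senescent libraries. The match in Cry2 lay outside the 300 bp window around the best peak of that region.

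Ciart had the simplest arrangement, with a single region (chromosome 3, 95881089 to 95883729) around its start sites at 95882205 and 95882231. The peak had a score of 927, 904 and 1472 in control and 1733, 1918 and 1412 in senescent libraries, which overlapped (exact permutation p = 0.2). It was 1824, 1956 and 2218 bp wide in control and 1992, 2581 and 1994 bp in senescent libraries (exact permutation p = 0.5). The centre lay 158 to 390 bp upstream of the outermost start site and 43 to 161 bp (median 100 bp) from the nearest E-box. The stretch covered in every library, 1824 bp, held all 4 E-boxes and 3 copies of the variant, at -463, -683 and -1134 bp. A D-box (TTATGTAA), the motif of PAR bZIP factors such as DBP, was matched at -667 bp. It lay outside the 300 bp window of Ciart, and 1.18% of the 1106 regions held this pattern in such windows. Control library 3 alone listed a second peak, 1044 bp downstream in intron 1 (rank 3138 of 10601), where it overlapped the broad Ciart peak of senescent library 2.

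Other protein-coding start sites are closer to Ciart than to the cryptochromes, the nearest being those of BC028528 (9774 bp) and Mrps21 (10712 bp). Peaks assigned to other genes within 50000 bp of Ciart were weak. Aph1a had peaks in 1 control and 3 senescent libraries (best rank 1337), Anp32e in 2 and 2 (best rank 1174), and Mrps21 and Prpf3 in 1 library each (ranks 7377.5 and 3433). Near Cry2, Slc35c1 had peaks in senescent library 2 (best rank 8549). Cry1 had no such neighbour.

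The clock genes set beside the members were 7 other repressors and a group of 4 genes, the PAR bZIP factors and Nfil3. Of these 11 genes, 10 had a peak in all 6 libraries. They were all 7 repressors (Per1, Per2, Per3, Bhlhe40, Bhlhe41, Nr1d1 and Nr1d2) and 3 of the second group (Dbp, Tef and Hlf), while Nfil3 had a peak in 1 control and 3 senescent libraries. Cry1 and Cry2 stood between Nr1d1 (ranks 6 to 11) and Bhlhe40 (ranks 35 to 55).

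Among these 10 genes, the best rank separated the groups at 6. It was better in senescent libraries at Per3, Bhlhe41, Nr1d2 and Hlf, and better in control libraries at Bhlhe40 and Tef. It was also better in senescent libraries at Cry2, where the best peak was not the same site in every library. Over all 1124 genes the shares better in senescent and in control libraries were 18.2% and 19.4%. Among the 37 regions with a mean rank of 50 or better, they were 29.7% and 10.8%. Hlf ranked 27, 28 and 38 in control and 12, 18 and 13 in senescent libraries, and Bhlhe40 35, 37.5 and 37 against 55, 50 and 44. Ranks within a list depend on each other, since a place gained by one peak is lost by another.

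**Figure D5:**
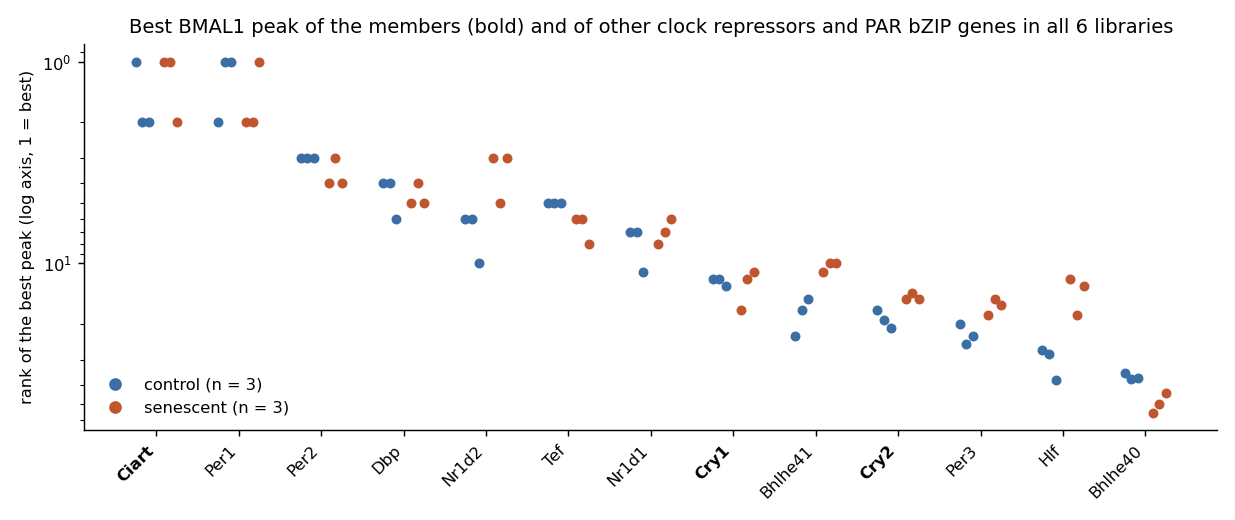
Rank of the best peak (log axis, best at the top) in each library for Ciart, Cry1, Cry2 and the 10 other repressor and PAR bZIP genes with a peak in all 6 libraries, ordered by mean rank. Blue and orange points are the 3 control and 3 senescent libraries, and at Cry2 the orange points (14 to 15) lie above the blue ones (17 to 21). The best peak of Cry2 is the promoter peak in control libraries 1 and 3 and the intron 3 peak in the others.

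The genes most alike to each member in rank were found by the mean absolute log2 difference of best ranks over the 6 libraries. For Cry2 they were Per3 (0.20), Ap5s1 (0.27) and Gm42791 (0.30). Per3 ranked 20, 25 and 23 in control and 18, 15 and 16 in senescent libraries, so it also separated the groups. For Cry1 they were Ap5s1 (0.34), Bhlhe41 (0.45) and Cry2 itself (0.45). Ap5s1 ranked 14, 13 and 17 in control and 14, 16 and 17 in senescent libraries, which overlapped. Ciart had no gene as close, because a step of 1 place is large at the top of a list, and the nearest were Per1 (1.00), Per2 (1.22) and Dbp (1.70).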

How the data were processed

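BMAL1-ChIP-seq peak lists of 3 control and 3 senescent libraries were used. The 6 input libraries were not analysed here. The authors mapped read pairs to mm10 with the Burrows-Wheeler Aligner, removed duplicates with Picard and called peaks per library with MACS2 at an FDR of 1% or less. The MACS2 version and the use of input as a control are not given in the sources used here. Each deposited peak has a score, taken here as −log10 q, because the lowest score of each list lay at 2.02 to 2.12 and 0 lay below 2, and it is not normalized between libraries. Higher depth gives more and wider peaks. The lists give no summits, so peak centres were used.

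Ranks (ties share a mean rank), overlaps of at least 1 bp, nearest GENCODE M21 start sites and exact motif matches in the GRCm38 sequence were computed with Python 3.11.15, numpy 2.4.6, scipy 1.17.1 and pandas 2.3.3. Peak chromosomes matched the reference, and 0 peaks ran past a chromosome end. Groups were compared by exact two-sided permutation tests over 20 arrangements, and the code was tested on simulated ranks. Benjamini-Hochberg adjustment was over the 1124 genes with a peak in all 6 libraries or the 1106 regions called in all 6. For the edges, centres and widths of promoter peaks it was over the 182 genes with a peak over the start site in all 6. The motifs were the E-box (CACGTG), its variant (CACGTT), the D-box (TTATGTAA or TTACGTAA), the RORE (TAGGTCA), AP-1 (TGACTCA), the CRE (TGACGTCA) and the glucocorticoid receptor motif. ACCGGT, the letters of the E-box in another order and not an E-box, was searched as well. Named genes were the 3 members, clock repressors and PAR bZIP genes with Nfil3 (the rest of the clock list is not reported here), the 3 genes most alike in rank to each member, and genes of peaks within 50000 bp. The members and lists were chosen with earlier results of these data known. Alternatives were other rank scales, a stricter threshold, equal peak numbers, a 10 kb window, start sites of all transcripts, an overlap of 50%, each library left out and a replicate block.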

Additional observations from a re-analysis of the deposited data

How the results depend on the processing

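Of 140 recomputed values, 124 kept their direction or, for counts of regions, stayed within 1.5 times. This tally includes values that could not change. A replicate block keeps every difference, and leaving out a library cannot turn the sign where the full groups do not overlap. The values that changed sign or reached 0 belong to differences within the spread between libraries. For Cry1, the rank difference was -0.0558 as a percent of the list, and the difference in peak number was 0.667 with a stricter threshold and 0 within 10 kb of the start site. For Cry2, the difference in bases covered was 81.3 with equal peak numbers. For Ciart, the difference in peak number was 0 with equal peak numbers. The stricter threshold left 6 member regions of 11, with 4 called in every library.

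Without 1 library at a time, the senescent minus control difference ran from -0.833 to 2.17 for the rank at Cry1, from -53.0 to 306.5 bases and from -0.667 to 0.333 peaks at Cry1, from -506 to 386 bases at Cry2, and from -54.7 to 299 bases and -0.5 to 0 peaks at Ciart. The sign turned without senescent replicate 1 (-0.833) for the rank at Cry1. Without senescent replicate 2 the bases at Cry1 and Ciart turned (-28.7 and -54.7), as did those at Cry1 without control replicate 2 (-53.0), and the peak number at Cry1 without control replicate 1 (0.333). The bases at Cry2 turned without control replicate 3 (386), senescent replicate 1 (156) or senescent replicate 3 (47.3). Member regions called in every library numbered 4 to 7, with 7 only when senescent replicate 2, whose broad peaks join neighbours, was left out.

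The better best rank of Cry2 in senescent libraries (-4.33) fell to -0.667 within 10 kb (exact permutation p = 1), where the window drops intron peaks centred beyond it, and to -1.33 among regions called in all 6 libraries (exact permutation p = 0.2). The tests of the Cry2 intron region, the Cry2 score ratio and the Cry1 edge, with their alternatives, were chosen after seeing the data. Without 1 library at a time these gave rank differences from -9.83 to -6.83, ratio differences from 0.280 to 0.421, and edge differences from 246 to 460 bp. The full groups do not overlap in these measures, so leaving out a library could not make them overlap or turn the sign. The exact permutation p of the edge reached 0.3 without control replicate 2. The labels give both groups replicate numbers 1 to 3. The r of deviations over 1106 regions was 0.0755, -0.0507 and -0.0177 for numbers 1, 2 and 3. Pairs of unlike number ran from -0.0887 to 0.0893, so these values cannot show whether the libraries were paired. A replicate block left every difference as it was by construction, and its exact sign-flip test cannot go below 0.25, the p of the best rank of Cry2 (-4.33) under the block.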
